A study of Drosophila melanogaster with 4 samples.

Results

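MOF clusters on chromosome arm 3L are described here. They are the 1183 regions of significant MOF enrichment that the authors' list for the replicate set places on 3L, the left arm of the third chromosome of Drosophila melanogaster, out of 6232 regions in the whole list. The scaffold 3LHet was not counted as part of the arm, and all positions are 1-based on FlyBase release 5. Parts called next to or near the centromere are therefore those at that end of an arm's own sequence. Chromatin of wild-type Oregon-R embryos at 14 to 16 h of development was immunoprecipitated with the MOF antibody Q4145 and sequenced, in 2 ChIP replicates, each with an input library of the same embryos' strain and stage. All 4 libraries share strain, genotype and stage, so the data hold no treated or mutant group. The labels name neither the sex of the embryos nor the number of embryo collections, and the spread between the replicates may therefore be technical. The lists of the single replicates hold 819 clusters on 3L in replicate 1 and 743 in replicate 2. No read depth of the libraries was analysed here, so scores are given without a counting error.

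MOF (males absent on the first) is the histone acetyltransferase that acetylates lysine 16 of histone H4, a mark of open, transcribed chromatin. It works in 2 assemblies. In the MSL complex it is guided by roX RNAs to the X chromosome of males, where it raises transcription to compensate for the missing second X. In the NSL complex it sits at promoters of active, mostly constitutively expressed genes on all chromosomes. An antibody against MOF recovers it from either assembly. On an autosome arm such as 3L the NSL complex is the assembly that MOF is known for. Position on 3L counts from the distal tip (the telomere) towards the centromere, next to which lies gene-poor pericentric heterochromatin.

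The 1183 clusters covered 10.5% of the 24.5 Mb arm at 48.2 clusters per Mb. The replicate lists covered less, 7.65% in replicate 1 and 7.08% in replicate 2, or 7.37% ± 0.397 (SD, n = 2). Their densities were 33.4 and 30.3 clusters per Mb, or 31.8 ± 2.19 (SD, n = 2). The replicate set is thus the longer list, and its 311 clusters that neither replicate holds were narrow and weak (medians 1261 bp and 0.38) beside the 659 held by both (medians 2270 bp and 0.86). Clusters held by replicate 1 alone or replicate 2 alone were as weak (medians 0.35 and 0.34) but wider (1855 and 1881 bp). The score is the authors' value for a cluster. Its scale is not stated, and it was read here, from the values, as a log2 enrichment with a scaling of its own in each list. The clusters were small beside the distances between them. The median width was 2039 bp for the replicate set, against 2079 and 2105 bp for replicates 1 and 2. The median gap between neighbours was 9.39 kb, 14.0 kb and 16.6 kb in the same order.

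MOF clusters occurred along the whole arm up to about 23 Mb, with moderate swings, and then became rare. No full 1 Mb window was empty in any of the 3 lists. Between the start of the arm and 23 Mb, 11.1% of the sequence lay in clusters of the replicate set (1161 clusters), and 7.81% ± 0.413 (SD, n = 2) in the replicate lists. From 23 Mb to the end, next to the centromere, the values were 2.11% (22 clusters) and 0.704% ± 0.160 (SD, n = 2). The ratio of the stretches was 5.25 in the replicate set, with 9.91 in replicate 1 and 12.7 in replicate 2. All 3 lists show the drop, and it was larger in the single replicates. The boundary at 23 Mb was chosen after the values were seen. The replicate set comes from the same 2 ChIP replicates, so the lists are not independent.

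**Figure D1:**
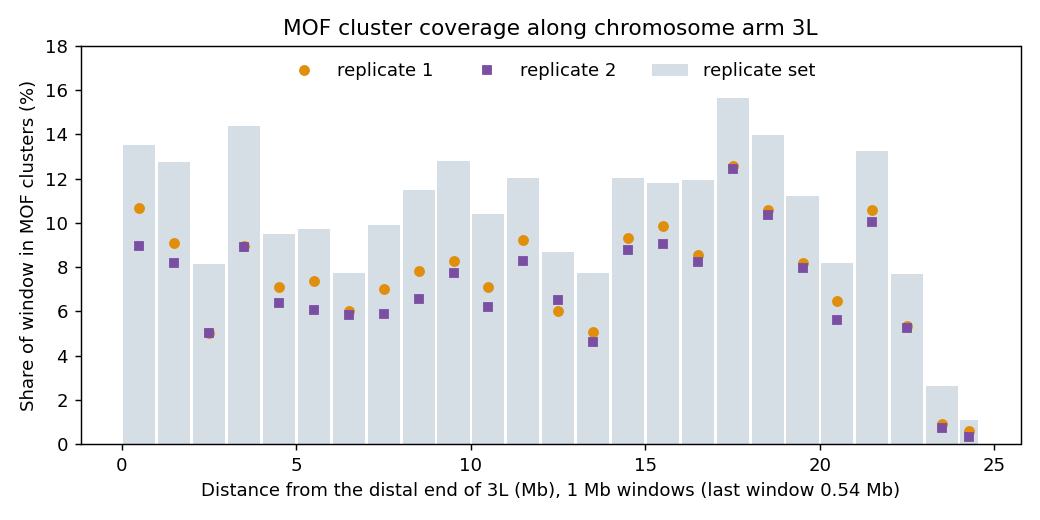
Share of each 1 Mb window of 3L (percent) that lies in MOF clusters, against the distance from the distal end of the arm in Mb; bars show the replicate set, circles replicate 1 and squares replicate 2. Coverage peaks at 15.6% of the window from 17 to 18 Mb and falls to 2.65% from 23 to 24 Mb.

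The most covered window was 17 to 18 Mb, with 65 clusters and 15.6% of the sequence in the replicate set. It also ranked first in replicate 1 (12.6%, 53 clusters) and in replicate 2 (12.4%, 51 clusters). Its clusters were also strong, with a median score of 0.79 against 0.49 for the whole arm, and 14 of the 65 were at least 3 kb wide. The next window by the replicate set, 3 to 4 Mb, was of another kind. It held more clusters (67) and 14.4% of the sequence in the replicate set, but only 8.95% ± 0.0341 (SD, n = 2) in the replicates, where it ranked ninth of the 24 full windows in replicate 1 and sixth in replicate 2. Its median score was 0.42, and 23 of its 67 clusters had no counterpart in either replicate. Windows 18 to 19 Mb (14.0% in the replicate set, 10.5% ± 0.152 in the replicates, SD, n = 2) and 0 to 1 Mb (13.5% and 9.84% ± 1.21) completed the 4 most covered. At the distal tip the replicates differed more than in the other 3, with 10.7% in replicate 1 and 8.98% in replicate 2.

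The least covered full window was 23 to 24 Mb, with 2.65% in the replicate set, with 0.928% in replicate 1 and 0.723% in replicate 2. It ranked last in all 3 lists. The other 3 least covered windows lay close together, at 7.70% for 22 to 23 Mb, 7.72% for 6 to 7 Mb and 7.72% for 13 to 14 Mb in the replicate set. Their replicate means were 5.29% ± 0.0825, 5.93% ± 0.135 and 4.83% ± 0.330 (SD, n = 2). These 3 could not be ordered by the replicate set, and the replicates put 13 to 14 Mb below the other two. In each replicate a window outside these 4, from 2 to 3 Mb (8.15% in the replicate set, against 5.03% and 5.04% in replicates 1 and 2), lay below 22 to 23 Mb and 6 to 7 Mb. It is named here after its values were seen. Across the 24 full windows the coverage of replicate 1 and replicate 2 correlated with r = 0.978 (Pearson) and rho = 0.967 (Spearman), as a description, since windows of 1 arm share libraries and neighbours. The number of clusters in a window said little about their strength: over the same windows the number and the median score in the replicate set had a Spearman rho of 0.113.

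At a finer scale the dense stretches broke into compact groups. The 100 kb window with most clusters was 17.9 to 18 Mb, with 16 in the replicate set (36.7% covered) and 11 in each replicate (26.7% and 26.8%). It was followed by 18.8 to 18.9 Mb, with 13 clusters in the replicate set and 9 in each replicate. The window 9.4 to 9.5 Mb also held 13 in the replicate set, but 7 in replicate 1 and 5 in replicate 2, and 6 of its 13 clusters had no counterpart in either replicate. Of the 245 full 100 kb windows, 13 held no cluster midpoint in the replicate set, with 28 in replicate 1 and 27 in replicate 2.

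Most clusters stood alone. With neighbours joined when at most 2 kb of sequence separated them, 795 of the 1183 clusters of the replicate set were single, 272 formed pairs, and 116 fell into 34 groups of 3 or more. In replicate 1, 629 of 819 were single and 46 fell into 14 such groups. In replicate 2, 569 of 743 were single and 38 fell into 11. The largest groups had 5 clusters.

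Of the 4 groups of 5 clusters in the replicate set, 2 lay between 17 and 18 Mb, and these were also the only groups of 5 in either replicate. The first spanned 16.5 kb from 17555698 to 17572184 and was covered to 84.6%. Its scores in order along the arm were 2.66, 0.48, 0.83, 1.37 and 1.94 in the replicate set. In replicate 1 the same 5 clusters scored 2.67, 0.58, 0.85, 1.34 and 2.09, and in replicate 2 they scored 2.61, 0.41, 0.80, 1.45 and 1.71. The order was the same in all 3 lists, with the strongest enrichment at the 2 ends of the group and the weakest beside the distal end.

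The second group spanned 16.1 kb from 17953909 to 17969992 and was covered to 92.2%, the densest of the groups of 4 or more in the replicate set. Its scores were 1.98, 1.20, 1.60, 2.22 and 0.79 in the replicate set. They were 1.91, 1.26, 1.76, 2.22 and 0.75 in replicate 1, and 2.05, 1.12, 2.09, 2.19 and 0.75 in replicate 2. A further group nearby, of 4 clusters from 17598928 to 17613683, scored 1.52, 1.34, 0.93 and 1.99 in the replicate set, and all 4 were found in both replicates. Elsewhere such groups were less uniform. The group of 5 from 10842075 to 10856264 held the fourth highest score on the arm (2.67), a cluster of 0.72 found in both replicates, and 3 clusters of 0.31 to 0.40, of which 1 was found in replicate 1 alone, 1 in replicate 2 alone and 1 in neither. The group of 5 from 3068847 to 3084599 had 3 clusters found in both replicates, with scores of 1.90, 0.83 and 1.40, and 2 clusters, at 0.39 and 0.31, found in neither.

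Gaps of at least 100 kb took up a minority of the arm. The replicate set had 30 gaps of at least 100 kb between neighbouring clusters, and with the uncovered distal tip these made up 16.1% of the arm. The corresponding shares were 26.4% in replicate 1 and 25.01% in replicate 2. The longest gap of the replicate set ran from 24274668 to 24512344 (237.7 kb) and ended 31.2 kb before the end of the arm. It lay inside a gap of 324.1 kb in replicate 1, and in replicate 2 the last 339.1 kb of the arm held no cluster. In each replicate the windows 23.25 to 23.5 Mb and 24.25 to 24.5 Mb held no cluster midpoint. The fourth longest, from 24027947 to 24202463 (174.5 kb), lay in the same region, inside a gap of 285.3 kb in replicate 1 and of 511.7 kb in replicate 2, the longest on the arm in any list. The longest in replicate 1, 400.2 kb from 23174814 to 23575052, was matched by one of 400.2 kb in replicate 2.

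The remaining 3 of the 5 longest gaps lay before 23 Mb. Of these, 2 overlapped windows named above among the least covered, 6 to 7 Mb and 22 to 23 Mb. The gap from 21949178 to 22125028 (175.9 kb) had edges within 100 bp of each other in all 3 lists, and its length was 175.9 kb in each replicate. This gap ended 2419 kb before the end of the arm, and so lay within the last 5 Mb. The gap from 14795779 to 14961299 (165.5 kb) corresponded to 180.6 kb and 181.6 kb in the replicates. The gap from 6309554 to 6488073 (178.5 kb) was 178.6 kb long in replicate 1, but replicate 2 had 1 cluster inside it, which left a gap of 90.4 kb. At the distal tip the first 127.5 kb held no cluster in any list. The cluster that ends this stretch, at 127484 to 133579, was among the 10 widest on the arm (6096 bp), with scores of 1.89 in the replicate set, with 1.75 in replicate 1 and 2.08 in replicate 2.

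The next comparison set the distal part of the arm against the part near the centromere. The first 5 Mb were covered to 11.7% and the last 5 Mb to 7.79% in the replicate set, a ratio of 1.5. The ratio was 1.45 in replicate 1 and 1.43 in replicate 2, or 1.44 ± 0.0105 (SD, n = 2), so it lay above 1 in each. This SD covers the difference between the 2 libraries and not the variation between stretches of the arm. The ratio depended on the stretches that were compared. The first 2 Mb against the last 2 Mb gave 3.00 in the replicate set and 3.72 ± 0.0502 (SD, n = 2) in the replicates. When the last 2 Mb were left out and the 5 Mb before them were used, which was decided with the data in view, the ratio was 0.987 in the replicate set, with 0.902 in replicate 1 and 0.852 in replicate 2. The order was then turned in all 3 lists. These 5 Mb, from 17.5 to 22.5 Mb, also bring in dense sequence from the windows 17 to 18 Mb and 18 to 19 Mb. Leaving out the last 2 Mb without adding other sequence was not tested. With the arm divided at its middle, the ratio was 1.09, and the single replicates gave 1.03 and 0.974, so the replicates fell on different sides of 1.

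Between these ends the arm was not uniform. By segments of 5 Mb from the distal end, the replicates were covered to 7.84% ± 0.477, 6.86% ± 0.634, 7.11% ± 0.331, 9.78% ± 0.24 and 5.01% ± 0.294 (SD, n = 2; the last segment is 4.54 Mb long). The segment from 15 to 20 Mb was the highest in each of the 3 lists and the last segment the lowest. The order of segments 2 and 3, from 5 to 15 Mb, did not hold between lists. Segment 3 lay above segment 2 in replicate 1 (7.35% against 7.31%) and replicate 2 (6.88% against 6.42%). It lay below segment 2 in the replicate set (10.2% against 10.3%).

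Clusters with a score of at least 2 were counted by segment. Of the 37 such clusters in the replicate set, 2 lay in the first 5 Mb, which held 266 clusters, against 6, 10, 9 and 10 in the following segments, which held 245, 232, 286 and 154. Replicate 1 had 2, 3, 9, 9 and 4 clusters of at least this score, out of 182, 168, 156, 212 and 101. Replicate 2 had 9, 11, 13, 22 and 11, out of 159, 146, 146, 201 and 91. The threshold selected more clusters in replicate 2 (66, or 8.88% of its clusters on 3L) than in replicate 1 (27, or 3.30%), and the cause was not tested. Each list was read here as scaled separately, so these counts are compared within a list. The distal 5 Mb held the fewest in all 3 lists, although the difference from the neighbouring segment was 1 cluster in replicate 1 and 2 in replicate 2. Of the set's 10 in the last segment, 2 overlapped neither replicate. Whether these clusters are spread differently from all clusters was not tested. Median scores varied less, from 0.46 in the first segment to 0.55 in the fourth in the replicate set, and from 0.66 to 0.76 in replicate 1. In replicate 2 they lay between 0.79 and 0.98, with the lowest in the second segment and the highest in the last.

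**Figure D2:**
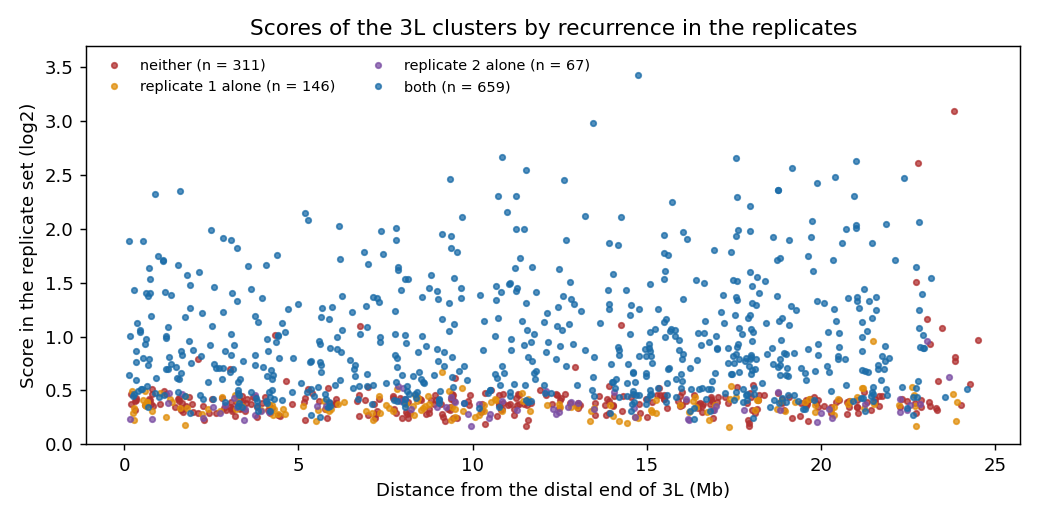
Log2 score of each of the 1183 clusters in the replicate set against the distance of its midpoint from the distal end of 3L in Mb; colour gives the replicates with which it shares at least 1 base. The 659 clusters found in both replicates reach 3.43 near 14.7 Mb, and the 2 highest clusters found in neither, at 3.10 and 2.61, lie beyond 22 Mb.

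The strongest cluster of 3L was a broad one, at 14746957 to 14754450. It scored 3.43 in the replicate set, 10.8-fold when read as a log2 ratio, 3.28 in replicate 1 and 3.59 in replicate 2. It was the highest on the arm in all 3 lists. Its width was nearly the same in each, with 7494, 7437 and 7458 bp. Its nearest neighbours were weak, at 0.24 and 0.46, and lay 9429 bp before and 13546 bp after it.

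Among clusters found in both replicates, the second highest score lay at 13469278 to 13471658, in the sparse window from 13 to 14 Mb. Its scores were 2.98 in the replicate set, with 2.92 in replicate 1 and 3.01 in replicate 2, and it ranked second in each replicate. A weak cluster flanked it on each side, 222 bp before and 114 bp after it. The one before scored 0.63 and was found in both replicates. The one after scored 0.32 and was found in replicate 2 alone. The 1 Mb window held 37 clusters with a median score of 0.40, but the 100 kb around the cluster, from 13.4 to 13.5 Mb, held 7 clusters and were covered to 14.5% in the replicate set, above the medians of 4 clusters and 9.57% over all 100 kb windows.

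The other 6 of the 10 highest-scoring clusters that were found in both replicates spread from 10.8 to 21.0 Mb. At 10848632 to 10851696 the score was 2.67 in the replicate set, against 2.46 and 2.94 in replicates 1 and 2. That at 17555698 to 17558140, the distal end of the first group of 5 above, scored 2.66, 2.67 and 2.61 in the same order. The broad cluster at 21015439 to 21022100 (6662 bp) scored 2.63, 2.76 and 2.75. In replicate 1 these 3 ranked 6, 4 and 3, and in replicate 2 they ranked 3, 15 and 8, so the order among them did not hold between lists.

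At 19162701 to 19166159 the scores were 2.57, 2.37 and 2.78 in that order. That at 11545313 to 11547763 scored 2.54, 2.46 and 2.62, and that at 20393652 to 20395982 scored 2.49, 2.31 and 2.81. The highest clusters of the 2 distal segments scored lower in the replicate set than these 10, though not in every list: in replicate 2 the one from 5 to 10 Mb ranked 10, above those at 11545313 (rank 14) and 17555698 (rank 15). By the replicate set, the highest of the first 5 Mb, at 1585449 to 1587849, scored 2.35, 2.27 and 2.48. The highest of 5 to 10 Mb, at 9365715 to 9368126, scored 2.46, 2.27 and 2.65. In replicate 1 other clusters led these segments, those at 880014 (2.278, against 2.273 at 1585449) and at 6176994 (2.33).

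The last 2 of the 10 highest scores belonged to clusters of another kind. The clusters at 23821085 to 23822085 (3.10) and at 22796805 to 22797805 (2.61) were each 1001 bp wide, the smallest width in the replicate set, and neither replicate had a cluster there. They lay 721.5 kb and 1746 kb from the end of the arm. In all, 8 clusters of the replicate set scored at least 1 without a counterpart in a replicate, of 276 with such a score. Their widths were 1001 to 1165 bp, and 5 of the 8 lay beyond 22 Mb. The replicate lists hold no cluster narrower than 1301 bp, so a region of this width could recur there only by sharing bases with a wider cluster. Whether these regions were enriched in each replicate was not tested.

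All 10 of the widest clusters were found in both replicates, but their widths often differed between the lists. The widest, at 18778484 to 18787051, spanned 8568 bp in the replicate set, but the largest overlapping clusters of the replicates spanned 3412 and 4949 bp, and replicate 2 held 2 clusters there. It was also weak, with scores of 0.71, 1.03 and 0.95 in the replicate set, replicate 1 and replicate 2. The next, at 9684553 to 9692710, kept most of its width, with 8158, 8072 and 6633 bp in the same order and scores of 2.11, 1.99 and 2.48. The third, at 9117144 to 9124752, spanned 7609, 5780 and 6008 bp and scored 1.95, 1.93 and 2.16. Only 2 clusters were among both the 10 strongest and the 10 widest, those at 14746957 and at 21015439.

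At 10727196 to 10734605 (7410 bp) the score was 2.304 in the replicate set and 2.12 in replicate 1, and 2.88 in replicate 2, where 2 clusters lay in its place. A pair of broad clusters near 21 Mb adjoined each other almost directly. The first, at 20999513 to 21005796 (6284 bp), scored 2.01, 1.91 and 2.25. It was separated by 41 bp from the next cluster, which ends 6317 bp before the strong broad cluster at 21015439. The other 3 of the 10 widest, at 16400456 to 16406647, at 127484 to 133579 and at 625210 to 631212, spanned between 6003 and 6192 bp in the replicate set. In the replicates they spanned 4707 to 6082 bp.

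Over the arm, wide clusters were a minority. In the replicate set 13.6% reached 3 kb (161 clusters, exact Clopper-Pearson 95% interval 11.7 to 15.7%), against 13.4% (110) and 14.5% (108) in replicates 1 and 2. Clusters of at least 5 kb numbered 22, 18 and 16. Intervals of shares cover counting error only.

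Width and score rose together within a narrow band of widths rather than over the whole range. Among clusters of 2.0 to 2.1 kb the median score of the replicate set was 0.52 (135 clusters), among those of 2.1 to 2.2 kb 0.90 (105 clusters), and among those of 2.2 to 2.3 kb 1.22 (66 clusters). The same steps were 0.66, 1.08 and 1.33 in replicate 1 and 0.79, 1.22 and 1.42 in replicate 2. Among wider clusters the lists differed. From 2.3 to 3 kb the median was 1.21 in replicate 1, below the preceding step, and 1.5 in replicate 2, above it. In the replicate set, clusters of 2.3 to 3 kb had a median of 1.05 (172 clusters), those of 3 to 5 kb 1.05 (139), and those of 5 kb or more 1.61 (22). Below 2 kb, where 46.0% of the replicate set lay, the median was 0.37, and the interquartile range was 0.31 to 0.42.

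**Figure D3:**
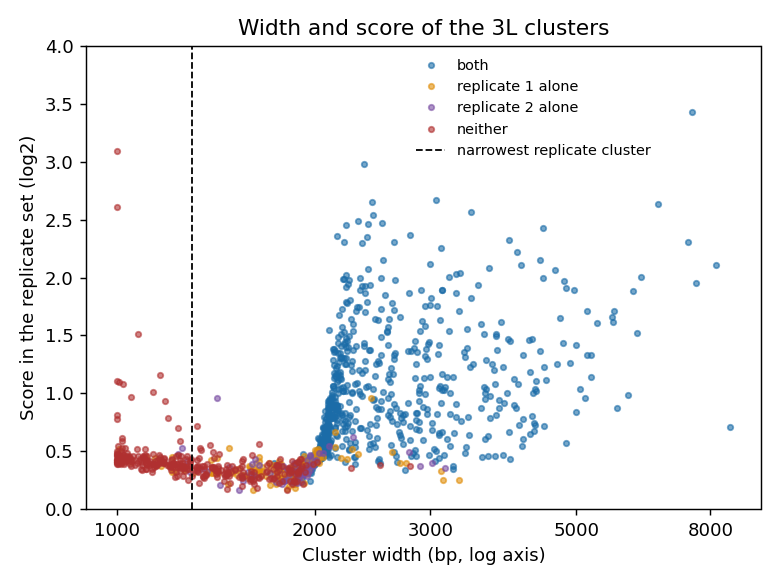
Log2 score in the replicate set against cluster width in bp (logarithmic axis) for the 1183 clusters of 3L, coloured by the replicates with which they share at least 1 base; the dashed line marks 1301 bp, the narrowest cluster of the replicate lists. Scores are low below 2 kb apart from a few clusters near 1001 bp, climb steeply between 2.0 and 2.3 kb, and vary widely above.

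As descriptions across clusters, the Spearman rho of width and score was 0.698 in the replicate set, with 0.817 in replicate 1 and 0.799 in replicate 2. Within 2.0 to 2.3 kb rho was 0.719, 0.794 and 0.8002. By steps it was 0.740, 0.679 and 0.785 at 2.0 to 2.1 kb, and 0.405, 0.433 and 0.464 at 2.1 to 2.2 kb. At 2.2 to 2.3 kb it was -0.140, 0.210 and -0.073, so the rise did not continue within the upper step. At 2.3 kb and above rho was 0.073, 0.036 and 0.026. Under 2 kb it was -0.40 for the replicate set, against 0.017 and -0.041 for replicates 1 and 2. In all 3 lists rho was thus positive within 2.0 to 2.3 kb and near 0 or negative under 2 kb. Within the widest class, of 5 kb or more, rho was again positive (0.478, 0.769 and 0.762), over 22, 18 and 16 clusters.

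The last comparison within the arm concerned recurrence in the replicates, counted as at least 1 shared base. Of the 1183 clusters, 659 overlapped clusters of both replicates, or 55.7% (exact 95% interval 52.8 to 58.6%), against 53.5% over all clusters of the genome. A further 146 (12.3%) overlapped replicate 1 alone, against 11.6% over the genome, and 67 (5.66%) overlapped replicate 2 alone, against 7.61%. The remaining 311 (26.3%, exact 95% interval 23.8 to 28.9%) overlapped neither, against 27.3%. Recurrence on 3L was thus near that of the whole list. Between the replicates, 665 of the 819 clusters of replicate 1 on 3L shared a base with replicate 2 (81.2%, against 81.2% over the genome). In the other direction it was 665 of 743 (89.5%, exact 95% interval 87.1 to 91.6%, against 86.7%).

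Recurrence followed score and width. The replicate set comes from the same 2 ChIP replicates, so its scores and widths are not independent of the replicate lists. In the lowest quartile of scores of the replicate set (0.16 to 0.37), 27 of 296 clusters (9.12%) were found in both replicates, in the second (0.37 to 0.49) 90 of 296 (30.4%), in the next (0.49 to 0.94) 257 of 295 (87.1%), and in the highest 285 of 296 (96.3%). The change from rare to frequent recurrence fell near a score of 0.49, 1.40-fold when read as a log2 ratio. By width, none of the 184 clusters under 1301 bp overlapped both replicates, 57 of the 360 from there to 2 kb did (15.8%), and 446 of the 478 between 2 and 3 kb did (93.3%). All 22 clusters of at least 5 kb recurred (exact 95% interval 84.6 to 100%). The replicate lists have no cluster under 1301 bp, and 170 of the 311 clusters found in neither replicate were narrower than that.

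Where clusters recurred, their edges lay close together in the replicates and their scores had a similar order. Over the 659 clusters found in both replicates, the starts in the replicates differed by a median of 42 bp and the ends by 39 bp. Starts agreed to within 100 bp for 482 of them (73.1%) and ends for 503 (76.3%). Across these clusters, which are not independent of each other, the scores of the replicates correlated with r = 0.930 (Pearson) and rho = 0.893 (Spearman). In 14 cases a cluster of the replicate set held 2 clusters of at least 1 replicate.

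Recurrence was lower next to the centromere. From 23 Mb to the end, 3 of 22 clusters were found in both replicates (13.6%, exact 95% interval 2.91 to 34.9%), against 656 of 1161 in the rest of the arm (56.5%, 53.6 to 59.4%). None of these 22 was as wide as 3 kb, and 10 of them were narrower than 1301 bp (45.5%), against 174 of 1161 (15.0%) in the rest. The stretch thus had both a lower recurrence and a larger share of narrow clusters. Wider clusters there also lacked a counterpart in either replicate, such as those at 23309618 (1601 bp) and 23331518 (1556 bp). Whether width accounts for the lower recurrence was not tested. The 3 that recurred scored 1.54 (23172720 to 23174824), 0.44 (23574976 to 23576930) and 0.51 (24202464 to 24204493) in the replicate set. The first was the strongest of the stretch in each replicate, with 1.45 in replicate 1 and 2.095 in replicate 2. Of the 5 Mb segments, that from 15 to 20 Mb had the highest recurrence, 183 of 286 (64.0%, 58.1 to 69.6%), and the others lay between 51.3% and 54.7%.

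The arm was set beside 2L and 3R, the large autosome arms that resemble it most in length. Clusters covered 7.37% ± 0.397 of 3L, 6.62% ± 0.237 of 2L and 7.76% ± 0.409 of 3R in the replicates (SD, n = 2). The ratio of 3L to 2L was 1.13 in replicate 1 and 1.10 in replicate 2 (1.11 ± 0.0201, SD, n = 2), and that of 3L to 3R was 0.95 and 0.948 (0.949 ± 0.00109). With 2 replicates an exact two-sided paired permutation test cannot give a p below 0.5, so these differences were judged against the spread of the ratios only, and none can be called particular to 3L.

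Most of the difference from 3R lay next to the centromere. In the 2 Mb at the centromere-near end of each arm's sequence 3L was covered to 2.49% ± 0.282, 2L to 4.24% ± 0.296 and 3R to 6.89% ± 0.497 (SD, n = 2). How far the sequence of each arm reaches towards its centromere was not examined, so these may be unlike stretches. The ratio of 3L to 3R there was 0.371 in replicate 1 and 0.350 in replicate 2, and that of 3L to 2L was 0.605 and 0.568. Without these 2 Mb on both arms the ratio of 3L to 3R was 0.997 and 0.995 in the replicates and 1.01 in the replicate set. The excess over 2L then grew to 1.15 and 1.12 in the replicates. By density the values without the 2 Mb were 1.00 and 0.992 for 3L to 3R, and 1.17 and 1.11 for 3L to 2L.

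**Figure D4:**
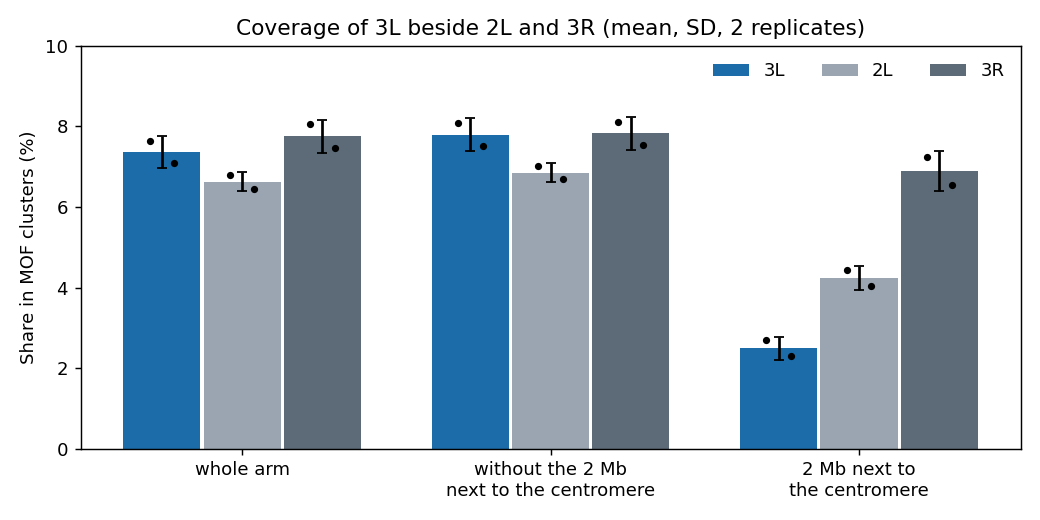
Share of sequence in MOF clusters (percent) for 3L, 2L and 3R over the whole arm, without the 2 Mb next to the centromere, and within those 2 Mb; bars are means of 2 replicates, error bars their SD and dots the single replicates. Next to the centromere 3L is lowest, at 2.49%. The rest of 3L (7.80%) and of 3R (7.83%) are close, with a ratio of 0.997 in replicate 1 and 0.995 in replicate 2.

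Median width and median score of 3L differed from those of the other arms by less than the spread between replicates. The median width was 2092 ± 18.4 bp on 3L, 2097 ± 4.24 bp on 2L and 2096.5 ± 9.19 bp on 3R (SD, n = 2). The median score of 3L minus that of 2L was -0.018 in replicate 1 and 0.054 in replicate 2, and that of 3L minus 3R was -0.027 and 0.014. Both differences changed sign between the replicates. The share of clusters of at least 3 kb was 14.0% ± 0.781 on 3L, 14.4% ± 0.112 on 2L and 15.0% ± 0.379 on 3R (SD, n = 2), and it was lower on 3L than on 3R in each replicate.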

How the data were processed

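Per the labels, MOF was profiled by ChIP-seq in 2 ChIP and 2 input libraries. Bowtie 0.12.7 is the tool listed in the submitters' processing notes. How peaks were called, at which threshold, and how replicates were joined into the set is not stated in the labels or file headers. Coordinates are 1-based and on FlyBase release 5, per the file headers. The authors deposited each cluster with a score of unstated scale, read here as a log2 ratio of ChIP to input with 1 scaling constant per list: after subtraction of the commonest score, the values, taken as powers of 2, were ratios of whole numbers (denominator at most 1000, relative tolerance 1e-10) for 98.4% to 99.8% of the clusters of a list, and with powers of e for at most 0.794%. Scores are therefore compared within a list. The score of a cluster in a replicate is that of the cluster sharing most bases with it.

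The reference table supplied names genes on release 6, so clusters were not assigned to genes, and no sequences are shown. Covered share counts bases in clusters, and density counts midpoints. Named were the 10 highest-scoring and 10 widest clusters, the highest of each 5 Mb segment, the 5 longest gaps, the 4 most and 4 least covered full 1 Mb windows and the 3 richest 100 kb windows. The clusters described as groups were chosen after their values were seen, as were the 22 clusters beyond 23 Mb and the bands of width. The members, comparisons and alternatives were chosen with earlier results of these data known. The interval functions were tested on simulated data. Python 3.11.15, numpy 2.4.6, pandas 2.3.3 and scipy 1.17.1 were used.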

Additional observations from a re-analysis of the deposited data

How the results depend on the processing

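The coverage, density and width of the clusters on 3L depended on which list and which clusters were counted, and their cause was not tested. Counted on single replicates (leaving out the other), covered share ranged from 7.08% to 7.65%, density from 30.3 to 33.4 per Mb, median width from 2079 to 2105 bp, median score from 0.70 to 0.91 and the share of the arm in gaps of at least 100 kb from 25.01% to 26.4%. The ratio of the first to the last 5 Mb ranged from 1.43 to 1.45, that of 3L to 2L from 1.10 to 1.13 and that of 3L to 3R from 0.948 to 0.95. With the upper scores only (from the median of the list upwards), covered share was 6.14%, density 22.5 per Mb, median width 2357.5 bp, the end ratio 1.29, recurrence in both replicates 93.7%, the share in gaps 40.1% and the ratio to 3R 0.949. With clusters found in both replicates only, the values were 7.21%, 26.9 per Mb, 2270 bp, a median score of 0.86, 31.0% in gaps, 1.14 relative to 2L and 0.948 relative to 3R. With clusters of at least 1301 bp only, they were 9.66%, 40.7 per Mb, 2102 bp, an end ratio of 1.59, recurrence of 66.0%, 19.4% in gaps and 0.946 relative to 3R. Merging of neighbours within 500 bp gave 45.7 clusters per Mb and a median width of 2058 bp. Gaps of at least 50 kb made up 35.5% of the arm in the replicate set.

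A change of the stretches compared turned 2 ratios of the replicate set. For the ratio to 3R the 2 Mb next to the centromere were left out. For the end ratio the last 5 Mb were replaced by those from 17.5 to 22.5 Mb. That change also added dense sequence between 17.5 and 19 Mb, and leaving out the last 2 Mb alone was not tested. The end ratio also turned in each replicate, whereas the ratio to 3R stayed below 1 in both (0.997 and 0.995). The end ratio was 3.00 for the outer 2 Mb, 1.09 for the arm divided at its middle and 0.987 for the 5 Mb ending 2 Mb before the end. Without the 2 Mb next to the centromere the ratio was 1.12 to 2L and 1.01 to 3R. A reciprocal overlap of 50 percent or of midpoints moved recurrence by less than its interval. Annotated transcription starts were not run, since the gene table is on another release. No paired analysis was possible because the ChIP and input replicates share numbers but only the ChIP replicates have cluster lists, and no test compares these groups.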

Other observations

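Some values fit no comparison above. On 3L, 7 clusters of replicate 1 (widths 1312 to 1479 bp, scores 0.36 to 0.70) and 10 of replicate 2 (1311 to 1537 bp, scores 0.54 to 0.76) share no base with the list of the replicate set. The scaffold 3LHet, heterochromatin assigned to the same arm, held 33 clusters of the replicate set, against 14 and 7 of replicates 1 and 2, or 12.9, 5.48 and 2.74 per Mb over 2.56 Mb. The last stretch of 3L, from 23 Mb on, held 14.3, 4.53 and 3.24 per Mb in the same order, and the density of the 2 regions was not tested for a difference. Among the clusters beyond 23 Mb are 3 of exactly 1001 bp that follow each other at distances of 19.7 and 19.0 kb, at 23821085, 23841754 and 23861749, with scores of 3.10, 0.81 and 0.78 and no counterpart in a replicate. They were picked out after their values were seen.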
